A study of Drosophila melanogaster with 8 samples.

Results

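The chorion gene amplicons of Drosophila melanogaster were examined in 1 kb windows of genome build dm3. The 7F amplicon was taken as all windows of X at chrX:8300001-8650000, and the 66D amplicon as all windows of 3L at chr3L:8600001-8900000. These positions gave 650 windows of the 168744 in the deposited tables, 350 at 7F and 300 at 66D. A window was tested when its mean input over the 4 input libraries was at least 2 RPKM (reads per kb of window, scaled to the library's total). This kept 345 windows at 7F and 295 at 66D, against 117126 windows in the whole genome.

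The libraries came from ovaries of adult, yeast-fed flies of the genotypes MTgal4_shW and MTgal4_shSov. The names join the MTgal4 driver, a maternal Gal4 source that acts in the germ line, to a hairpin: shSov is named for Sov and shW serves as its control here. For each genotype there were 2 chromatin immunoprecipitation (ChIP) libraries against H3K9me3, a histone mark of silent heterochromatin, and 2 input libraries from lysate kept back before the antibody was added. The level of Sov was not analysed here, and the labels do not say whether the libraries marked as repeats came from separate flies, so p-values measure the spread between these libraries only.

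Chorion proteins build the eggshell. In late oogenesis the somatic follicle cells around the oocyte stop copying their genome as a whole and fire origins at a few loci again and again, among them the chorion clusters at 66D and 7F. Replication forks move outwards from each origin, so DNA copy is highest at the cluster and falls away on both sides. The origin recognition complex, Myb and E2F complexes act at the control elements, and the element ACE3 at 66D lies beside Cp18. The RefSeq table for Release 6 lists 4 chorion genes at 66D in the order Cp18, Cp15, Cp19 and Cp16. It lists 5 at 7F in the order Cp7Fa, Cp7Fb, Cp7Fc, Cp36 and Cp38, and neither cluster has another gene between its members. Cp36 and Cp38 code for major chorion proteins and are expressed before most of the 66D genes. No annotation of build dm3 was used, so single windows were not assigned to these genes.

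Read totals ran from 9760028 to 27962050 in the inputs and from 4208693 to 16514896 in the ChIP libraries. The median tested window held 77 to 210 reads in an input and 21 to 110 in a ChIP library, and shW ChIP replicate 1 was the shallowest. The 66D windows held 35586 to 144681 reads per input and the 7F windows 40083 to 126919. Copy is the RPKM of a window divided by the median RPKM of the tested windows of its arm in the same library, so that 1 is the typical level of X or 3L. The centre of an amplicon is the middle of the 5 neighbouring tested windows with the highest mean copy over all 4 inputs, so both genotypes set it. It fell at chr3L:8720001-8721000 and at chrX:8375001-8376000.

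The input DNA of both genotypes carried the 66D amplicon, and its copy was higher in shSov than in shW. Over the 5 windows at the 66D centre, input copy was 7.04 and 6.73 in the shW replicates 1 and 2, and 12.1 and 9.33 in the shSov replicates. Both shSov libraries lay above both shW libraries, and the shSov replicates differed more from each other than the shW replicates did. The means were 6.89 ± 0.218 for shW against 10.7 ± 1.94 for shSov (SD, n = 2 each), a 1.54-fold difference that exceeded the spread between replicates. A two-sided exact permutation test on 2 libraries against 2 cannot give a p below 0.333, and it gave 0.333 here. Across the 58 such tests of this report the smallest Benjamini-Hochberg adjusted p was 0.450. Copy is an average over all nuclei of the ovary, so a larger share of amplifying follicle cells and more copies in each of them cannot be told apart.

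Single windows showed the same order. At chr3L:8718001-8719000, the window of highest mean input at 66D, the inputs held 898 and 548 reads in shW and 3750 and 2714 reads in shSov. These counts correspond to a copy of 9.07 and 7.12 in shW and of 18.0 and 13.9 in shSov. All 4 libraries were far above the arm, and the shSov values did not overlap the shW values. edgeR's quasi-likelihood test over all tested windows of the genome gave a log2 change of 0.96 with an SE of 0.60 and a Benjamini-Hochberg adjusted p-value of 0.347, so the window did not pass at the threshold of 0.05. The centre window held 551 and 474 reads in the shW inputs and 2085 and 1532 in the shSov inputs, and its edgeR adjusted p-value was 0.379.

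**Figure D1:**
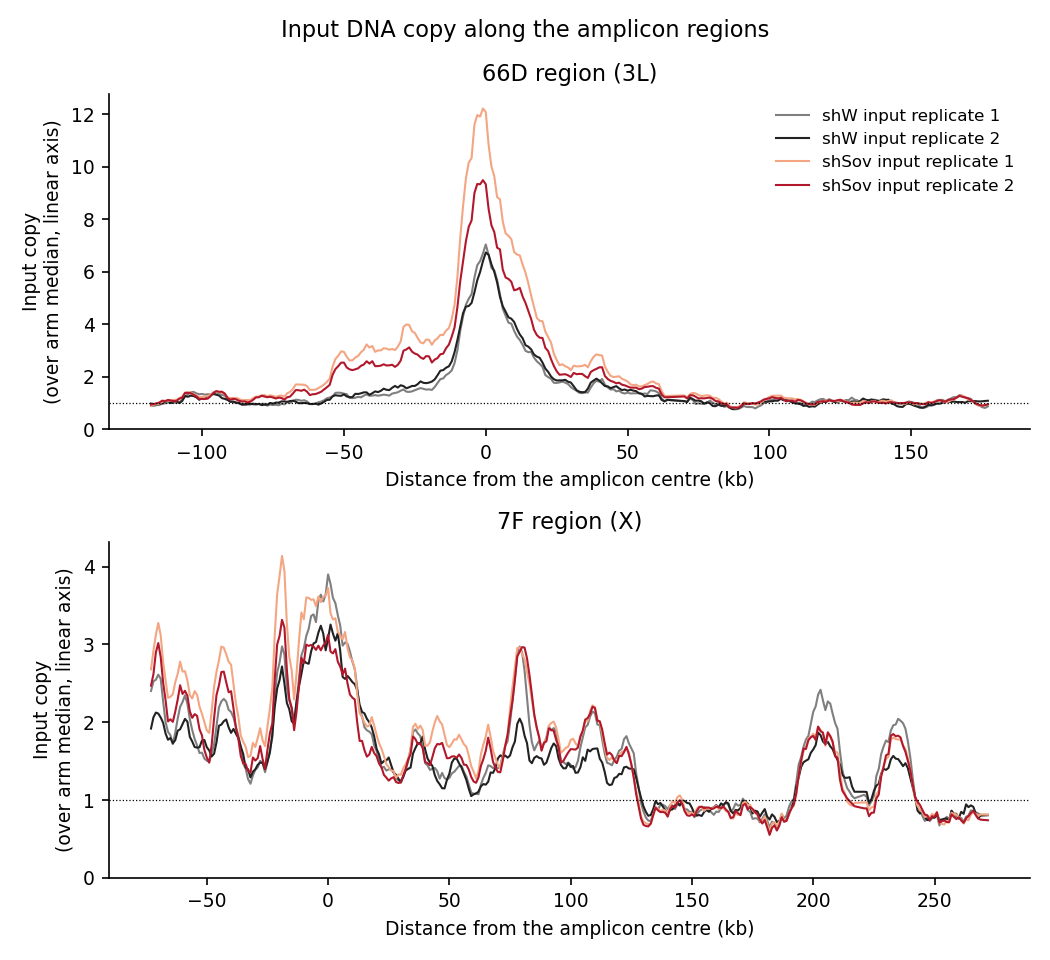
Input copy over the arm median (running mean of 5 windows, linear axis) against distance from the amplicon centre in kb, with 1 line per input library and the dotted line at a copy of 1. At 66D the shSov lines stand above the shW lines from the centre out to about 60 kb on the side of lower coordinates, while at 7F the 4 lines lie close together at the centre.

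The gradient at 66D was steep near the centre, and its relative width overlapped between the genotypes. In a running mean over 11 windows, the distance at which the copy above 1 had fallen by 50% was 10 and 11 kb in shW and 12 and 11 kb in shSov towards lower coordinates. Towards higher coordinates it was 12 and 14 kb in shW and 14 and 14 kb in shSov. These ranges overlapped or touched on both sides. The copy 20 to 60 kb away, relative to that at the centre, was -2.19 ± 0.10 for shW against -2.12 ± 0.09 for shSov (SD, n = 2 each) on the log2 scale, with overlapping replicates.

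The 2 sides of the 66D amplicon differed in how the genotypes compared. On the side of lower coordinates, copy from 20 to 60 kb was 1.33 and 1.43 in shW and 2.96 and 2.42 in shSov. On the side of higher coordinates it was 1.59 and 1.66 in shW and 2.35 and 2.05 in shSov. The shSov values were above the shW values on each side, with a 1.94-fold difference on the lower side and a 1.35-fold difference on the higher side. The log2 ratio of the lower to the higher side was -0.23 ± 0.03 (SD, n = 2) for shW, against 0.29 ± 0.06 (SD, n = 2) for shSov. The order of the sides was therefore opposite in the genotypes, with no overlap between libraries (two-sided exact permutation p = 0.333, the smallest possible). This measure of asymmetry was chosen after the profiles had been seen.

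As a ratio, the shSov excess on the lower side was largest from 20 to 60 kb, at 1.96-fold to 40 kb and 1.91-fold from there, and smaller beyond. Nearer the centre it was 1.75-fold within 5 kb, 1.76-fold at 5 to 10 kb and 1.60-fold at 10 to 20 kb. In copies the excess was larger near the centre: within 5 kb copy was 6.61 and 5.95 in shW and 12.4 and 9.70 in shSov. From 20 to 40 kb on the lower side mean input copy was 1.41 and 1.62 in shW and 3.32 and 2.65 in shSov. From 40 to 60 kb it was 1.26 and 1.24 in shW and 2.59 and 2.19 in shSov. In both of these intervals the mean of each shSov input was above a copy of 2 and that of each shW input below it. Between 60 and 100 kb copy was 1.07 and 1.06 in shW and 1.34 and 1.26 in shSov, a 1.22-fold difference with no overlap. Beyond 100 kb on this side the genotypes differed 1.04-fold. On the higher side the shSov excess was 1.40-fold within 5 kb and 1.49-fold at 5 to 10 kb, and it shrank from 1.62-fold at 10 to 20 kb to 1.43-fold at 20 to 40 kb, 1.25-fold at 40 to 60 kb and 1.14-fold at 60 to 100 kb, and beyond 100 kb it was 1.02-fold with overlapping replicates.

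**Figure D2:**
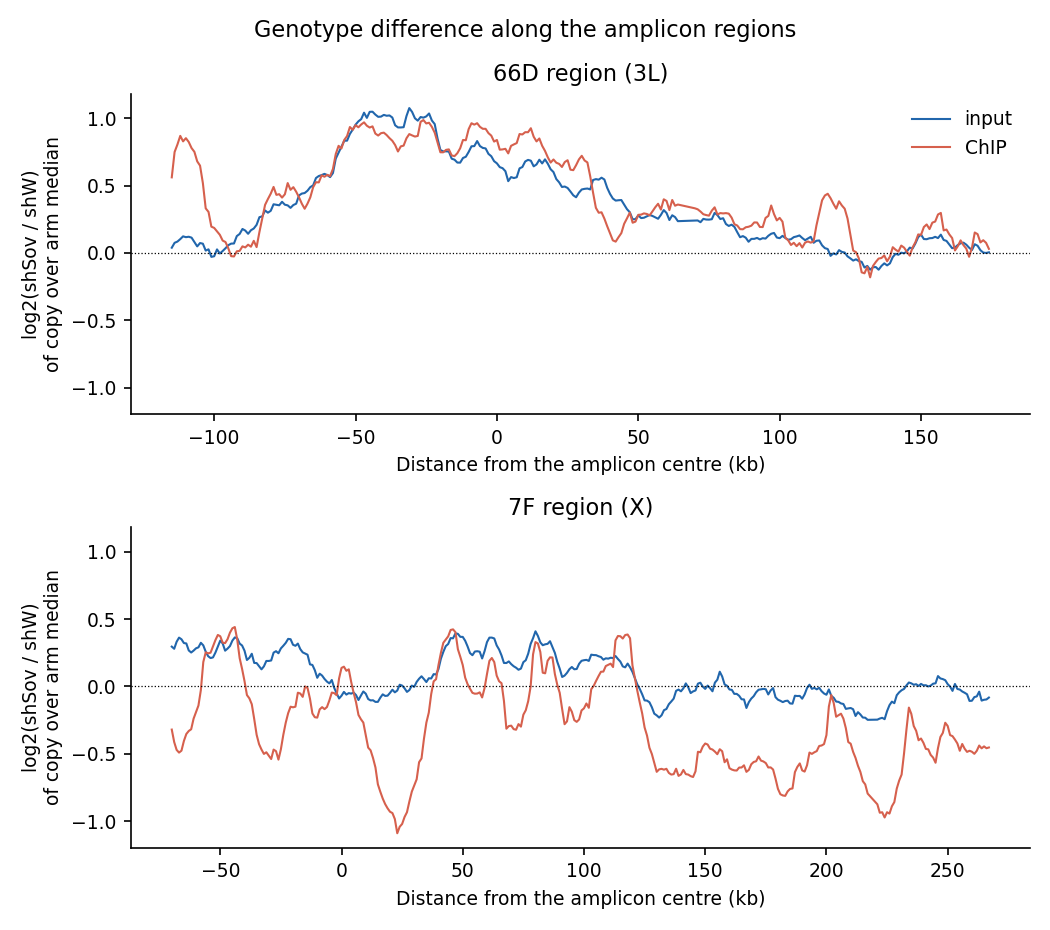
The log2 ratio of shSov to shW of copy over the arm median (means of 2 libraries per genotype, running mean of 11 windows) against distance from the amplicon centre in kb, for input and ChIP reads. At 66D both lines are near 1 at 20 to 60 kb on the lower side, and at 7F the input line is near 0 at the centre and higher in the shoulders, with a 1.23-fold ratio at 40 to 60 kb on each side, while the ChIP line is lowest at 20 to 40 kb on the higher side, where the mean ChIP copy of shSov was 0.589 times that of shW.

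edgeR's test on the input counts placed these differences against the whole genome. Of the 295 tested 66D windows, 80 (27.1%) were higher in shSov at an adjusted p-value under 0.05, against 3.67% of all 117126 tested windows. A total of 2 windows (0.678%) were lower, against 4.36% of all tested windows. The median log2 change was 0.28 over the 66D windows and 0.01 over all tested windows. The called windows were concentrated on the lower side: all 40 windows from 20 to 60 kb were higher, with a median log2 change of 0.90, against 13 of 41 within 20 kb, where the median was 0.65, and 11 of 40 from 20 to 60 kb on the higher side, where it was 0.38. Beyond 60 kb, 11 of 60 windows on the lower side and 5 of 114 on the higher side were higher. The window called higher that was nearest to the centre lay 11 kb from it, so the windows at the peak itself were not called. A run of 53 neighbouring called windows covered chr3L:8652001-8705000. Without shSov replicate 1 the count at 66D was 19 and that on the lower shoulder was 16 of 40, without shSov replicate 2 they were 34 and 26, and without shW replicate 2 the count at 66D was 129. DESeq2 called 45 windows higher at 66D, 26 of them on the lower shoulder.

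The 3 windows named next lie in the lower shoulder and were picked as the largest called rises at 66D. They are extremes, and the median log2 change of that shoulder was 0.90. The window chr3L:8693001-8694000, 27 kb from the centre, held 148 and 116 reads in the shW inputs and 1096 and 796 in the shSov inputs. Its copy was 1.49 and 1.51 in shW and 5.27 and 4.08 in shSov, and no library of one genotype reached the range of the other. The log2 change was 1.62 (SE 0.23), the largest among the called 66D windows, and edgeR's adjusted p was 1.02e-06. The window chr3L:8678001-8679000 had a copy of 1.29 and 1.38 in shW and 3.77 and 3.09 in shSov, and its edgeR adjusted p-value was 1.90e-06. At chr3L:8694001-8695000 the copy was 1.36 and 1.42 in shW and 3.98 and 3.01 in shSov, where edgeR gave an adjusted p of 4.89e-06. Copy in these 3 windows ran from 1.29 to 1.51 in the shW inputs and from 3.01 to 5.27 in the shSov inputs.

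Farther out the windows came closer to the level of the arm, but at 60 kb on the lower side shSov was still above shW. The window 60 kb from the centre on the lower side, chr3L:8660001-8661000, had a copy of 0.768 and 0.870 in shW and 1.34 and 1.11 in shSov, where edgeR gave an adjusted p of 0.00913. The window 100 kb away on that side, chr3L:8620001-8621000, had 1.26 and 1.12 in shW and 1.28 and 1.09 in shSov, and the genotypes overlapped. The windows 40 and 100 kb away on the higher side had edgeR adjusted p-values of 0.0585 and 0.743. The only 2 windows called lower in the shSov inputs lay at 131 and 140 kb on the higher side. Their log2 changes were -0.48 and -0.44 with edgeR adjusted p-values of 0.0180 and 0.0360.

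Over the 66D region the net DNA above a copy of 1 summed to 160 and 167 kb in shW. In shSov it summed to 400.4 and 299.8 kb. Windows below 1 counted as negative, so this sum follows from the mean copy given below. The number of windows with a copy of at least 2 was 40 and 41 in shW and 101 and 87 in shSov. Neither measure overlapped between the genotypes. Mean copy over the region was 1.55 ± 0.0158 for shW against 2.19 ± 0.241 for shSov (SD, n = 2 each), a 1.40-fold difference. The median over the same windows differed 1.13-fold, again with no overlap.

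**Figure D3:**
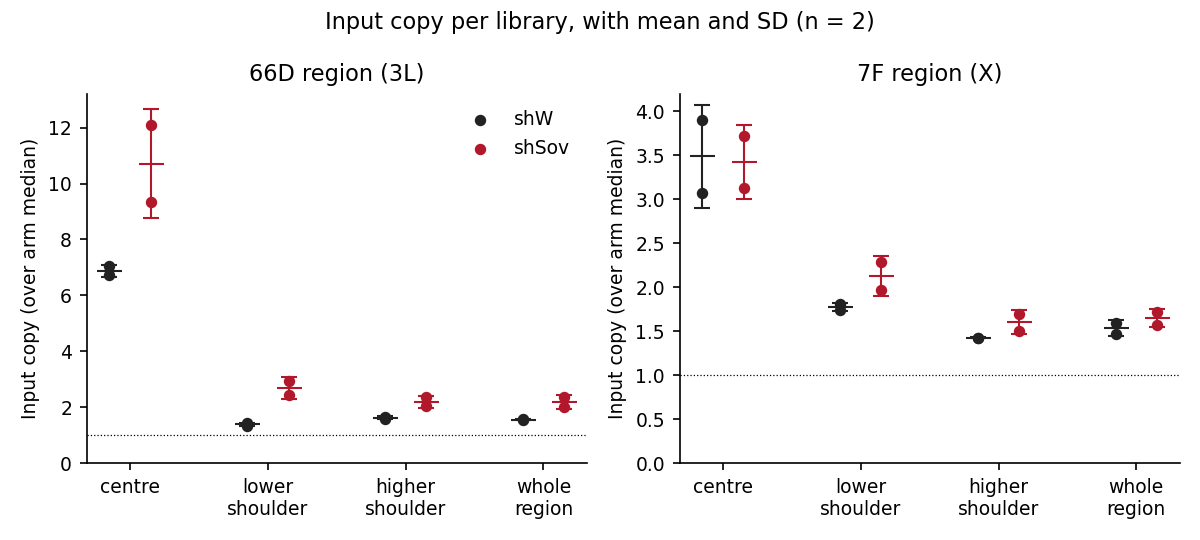
Input copy over the arm median (linear axis) at the centre, in the shoulders from 20 to 60 kb and over the whole region, for each input library (points), with the mean and SD of 2 libraries per genotype (bars). At 66D both shSov points are above both shW points at all 4 positions, and at 7F the genotypes overlap at the centre and over the whole region.

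The 7F amplicon was lower and less regular, and its centre did not separate the genotypes. Over the 5 windows at the 7F centre, input copy was 3.90 and 3.08 in shW and 3.73 and 3.12 in shSov. The genotypes overlapped, with means of 3.49 ± 0.583 and 3.42 ± 0.425 (SD, n = 2 each) and a 0.985-fold ratio (two-sided exact permutation p = 1). The centre window held 359 and 241 reads in the shW inputs and 779 and 619 in the shSov inputs, and its edgeR adjusted p-value was 0.984. The window of highest mean input, chrX:8373001-8374000, had a copy of 4.59 and 3.10 in shW and 4.63 and 3.69 in shSov.

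The genotype effect at the centre was smaller at 7F than at 66D. The log2 centre copy of 7F minus that of 66D was -0.85 and -1.13 in shW and -1.70 and -1.58 in shSov. The genotypes were -0.65 apart, more than their replicates were, with a two-sided exact permutation p of 0.333, the smallest possible.

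The distance of the 50% fall at 7F was 20 and 23 kb in shW and 26 and 26 kb in shSov on the lower side, with no overlap, and 14 and 16 kb against 15 and 13 kb on the higher side, where the genotypes overlapped.

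The shoulders of 7F did separate the genotypes, by less than at 66D. From 20 to 60 kb on the lower side, copy was 1.81 and 1.75 in shW and 2.29 and 1.97 in shSov, a 1.19-fold difference. On the higher side it was 1.43 and 1.42 in shW and 1.70 and 1.50 in shSov, a 1.12-fold difference. Both shSov libraries were above both shW libraries on each side. That order alone is common: it held in 33.9% of all 20 kb bins of the distal arms and in 7 of the 18 bins of 7F. The slope of log2 copy over the first 60 kb on the higher side was -0.23 ± 0.01 (SD, n = 2) per 10 kb for shW against -0.14 ± 0.01 (SD, n = 2) for shSov, and that on the lower side was -0.14 ± 0.01 and -0.10 ± 0.01 in the same order. Copy on the lower side did not fall steadily. At 20 to 40 kb it was 1.71 and 1.69 in shW and 2.13 and 1.81 in shSov. At 40 to 60 kb it was higher, at 1.91 and 1.80 in shW and 2.45 and 2.13 in shSov. The slope fitted there thus joins a fall and a rise. On the higher side the genotypes overlapped at 20 to 40 kb, at 1.51 and 1.48 in shW and 1.60 and 1.46 in shSov. They separated at 40 to 60 kb, at 1.35 and 1.36 in shW and 1.79 and 1.55 in shSov. The fitted slope of shSov was the flatter on both sides, with no overlap (two-sided exact permutation p = 0.333 for each side). The size of this difference depended on the distance fitted: on the higher side it was 0.086 per 10 kb over 60 kb but 0.0332 over 40 kb, within the replicate SD of 0.0355, and 0.0358 over 100 kb. On the lower side it was 0.0411 over 60 kb and 0.0468 over 40 kb, where the SD was 0.0435. At 66D the slopes over 60 kb on the lower side overlapped, at -0.38 ± 0.01 and -0.36 ± 0.02 (SD, n = 2), and on the higher side that of shSov was the steeper, at -0.36 ± 0.01 against -0.42 ± 0.03. The difference of shSov and shW on the lower side of 66D changed sign with the distance fitted, from 0.0898 per 10 kb over 40 kb to -0.0880 over 100 kb, and that on the higher side was -0.0324 over 40 kb.

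Of the 345 tested 7F windows, edgeR called 20 (5.80%) higher and 10 (2.90%) lower in the shSov inputs, near the background of 3.67% and 4.36%. None of the 20 lay within 20 kb of the centre. The largest rise was at chrX:8421001-8422000, 46 kb from the centre, where copy was 1.35 and 1.29 in shW and 2.40 and 2.03 in shSov. The neighbouring window chrX:8422001-8423000 had 1.32 and 1.01 in shW and 2.17 and 1.74 in shSov. The largest fall was at chrX:8506001-8507000, where the shW inputs held 27 and 43 reads and the shSov inputs 40 and 40, and copy was 0.260 and 0.544 in shW and 0.187 and 0.197 in shSov. The shW replicates there differed from each other more than the shSov replicates did. The counts of higher and lower windows were 50 and 23 without shW replicate 1, 33 and 9 without shW replicate 2, 0 and 1 without shSov replicate 1, and 4 and 0 without shSov replicate 2. DESeq2 called 0 of the 7F windows in either direction, and at an unadjusted p under 0.05 edgeR had 57 (16.5%) higher and 36 (10.4%) lower, against 11.2% and 11.3% of all tested windows.

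The rule for 7F cut into the raised interval on the side of lower coordinates. The first 20 kb inside the border had an input copy of 1.92 to 2.63 in the 4 inputs, the 20 kb just outside had 1.10 to 1.26, and the next 20 kb had 0.80 to 0.85. On the higher side copy was 1.26 or more in every input in each 20 kb bin up to chrX:8480001-8500000, and 0.88 to 0.99 in the next bin. It rose again to between 1.24 and 1.58 over chrX:8560001-8620000, in 3 bins that ranked 1161st to 1458th by copy among all 20 kb bins.

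Across the arms outside the 1 Mb nearest the centromere, 5622 bins of 20 kb held at least 10 tested windows, and their input copy had a median of 1.03 and a 99th percentile of 2.02. The highest 2 bins of all were those on either side of the 66D centre, at 5.33 and 4.88. The third was the bin that holds the 7F centre, at 3.01, and the highest bin outside the regions was at 2.29. The highest other bin of 7F was at 2.28, so away from its centre no 7F bin exceeded the highest bin outside the regions. The shSov inputs exceeded the shW inputs most in a bin near the tip of 3L, which is no part of the amplicons and had a low copy of 0.46. The next 4 bins in that order were all at 66D, with log2 ratios of 0.99, 0.90, 0.77 and 0.60. The bin with the 7F centre had a log2 ratio of -0.01. Both shSov inputs lay above both shW inputs in 14 of the 15 bins of 66D and in 7 of the 18 bins of 7F, against 33.9% of all bins. Both lay below both shW inputs in 1 bin of 66D and 4 bins of 7F, against 23.9% of all bins.

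**Figure D4:**
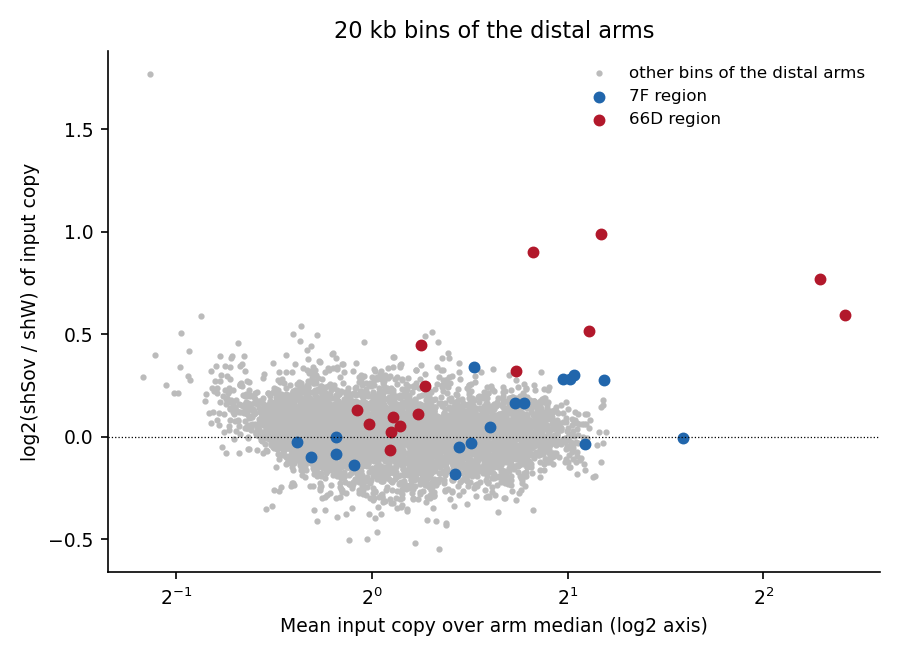
Log2 ratio of shSov to shW of input copy against mean input copy over the arm median (log2 axis) in 20 kb bins of the distal arms, with the bins of the amplicons coloured. The 66D bins reach a copy of 5.33 and log2 ratios up to 0.99, and the 7F bin of highest copy, at 3.01, lies at a log2 ratio of -0.01.

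The H3K9me3 ChIP libraries were then set against these inputs. At 66D the ChIP reads followed the DNA. ChIP copy over the 5 centre windows was 5.28 and 5.93 in shW and 10.6 and 8.28 in shSov, a 1.67-fold difference beside the 1.54-fold difference in the input. Across the 295 windows, log2 ChIP copy rose with log2 input copy with a slope of 0.97 and 0.96 in shW and 1.02 and 1.06 in shSov, and Pearson's r was 0.85 and 0.88 in shW and 0.97 and 0.92 in shSov. These values describe windows that share libraries and neighbours. A slope of 1 means that a window with more DNA had more ChIP reads in the same proportion.

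Enrichment is the log2 ratio of ChIP to input RPKM after 1 is added to each, with the input of the same replicate number as denominator. Its mean was below 0 in the core, shoulders and outer part of the 66D amplicon in every library. Within 20 kb of the centre it was -0.92 and -0.60 in shW and -0.34 and -0.41 in shSov. Over the rest of the distal arm of 3L it was -0.54 and -0.41 in shW and -0.27 and -0.33 in shSov. The 66D core was under the level of its arm in every library, with a difference of core and arm of -0.28 ± 0.13 for shW against -0.08 ± 0.01 for shSov (SD, n = 2 each). The genotypes did not overlap (two-sided exact permutation p = 0.333). The difference of 0.21 between them was 0.11 without shW replicate 1, the shallowest ChIP. It was 0.84 against the mean of all 4 inputs and 0.34 as a ratio of summed RPKM. A level under the arm was not particular to the core. Beyond 60 kb inside the region the difference from the arm was -0.27 ± 0.10 for shW against -0.13 ± 0.02 for shSov (SD, n = 2 each), also with no overlap. From 20 to 60 kb it was -0.23 ± 0.03 against -0.20 ± 0.07, with overlap.

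No tested window of 66D (0 of 295) reached a 2-fold enrichment in both libraries of a genotype, for shW or for shSov. The background was 7.23% of all tested windows in shW and 5.8% in shSov. edgeR on the ChIP counts alone called 92 of the 66D windows (31.2%) higher in shSov and 0 lower and DESeq2 also had 0 lower, against 2.84% and 3.19% of all tested windows. At an unadjusted p under 0.05 edgeR had 164 (55.6%) higher and 0 lower, against 16% and 7.63% of all tested windows. The median log2 change of the ChIP reads was 0.69 over the 66D windows, -0.14 over those of 7F and 0.22 over all tested windows, so library totals as offsets place most windows above 0. With the input in the model, as the interaction of genotype and antibody, 2 windows (0.678%) were higher and 0 lower, against 0.264% and 0.595%. The unadjusted p of the interaction was under 0.05 in edgeR's test for 38 windows of 66D (12.9%) with higher enrichment and 0 with lower, against 9.3% and 4.45% of all tested windows. The median log2 change in enrichment was 0.34 over the 66D windows and 0.19 over all tested windows, so most windows of the genome lay above 0. The count of 92 was 2 without shSov replicate 1, 4 without shSov replicate 2, 161 without shW replicate 2, 25 by DESeq2 and 28 with TMM factors, which scale each library by the bulk of its windows.

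The 2 windows with higher enrichment were neighbours outside the gradient, at 109 and 110 kb from the centre. At chr3L:8611001-8612000 the ChIP libraries held 10 and 35 reads in shW and 223 and 94 in shSov, and enrichment was -1.29 and 0.04 in shW and 0.69 and 1.08 in shSov. The log2 change was 1.52 (SE 0.32), and edgeR's adjusted p was 0.0110. At chr3L:8610001-8611000 enrichment was -0.72 and -0.44 in shW and 0.66 and 0.46 in shSov, where edgeR gave an adjusted p of 0.0159. Input copy in these windows was between 0.675 and 1.23 in the 4 inputs, so the rise was in the ChIP reads. The count of 2 windows was 0 without shW replicate 1 or without either shSov replicate, and 22 without shW replicate 2.

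**Figure D5:**
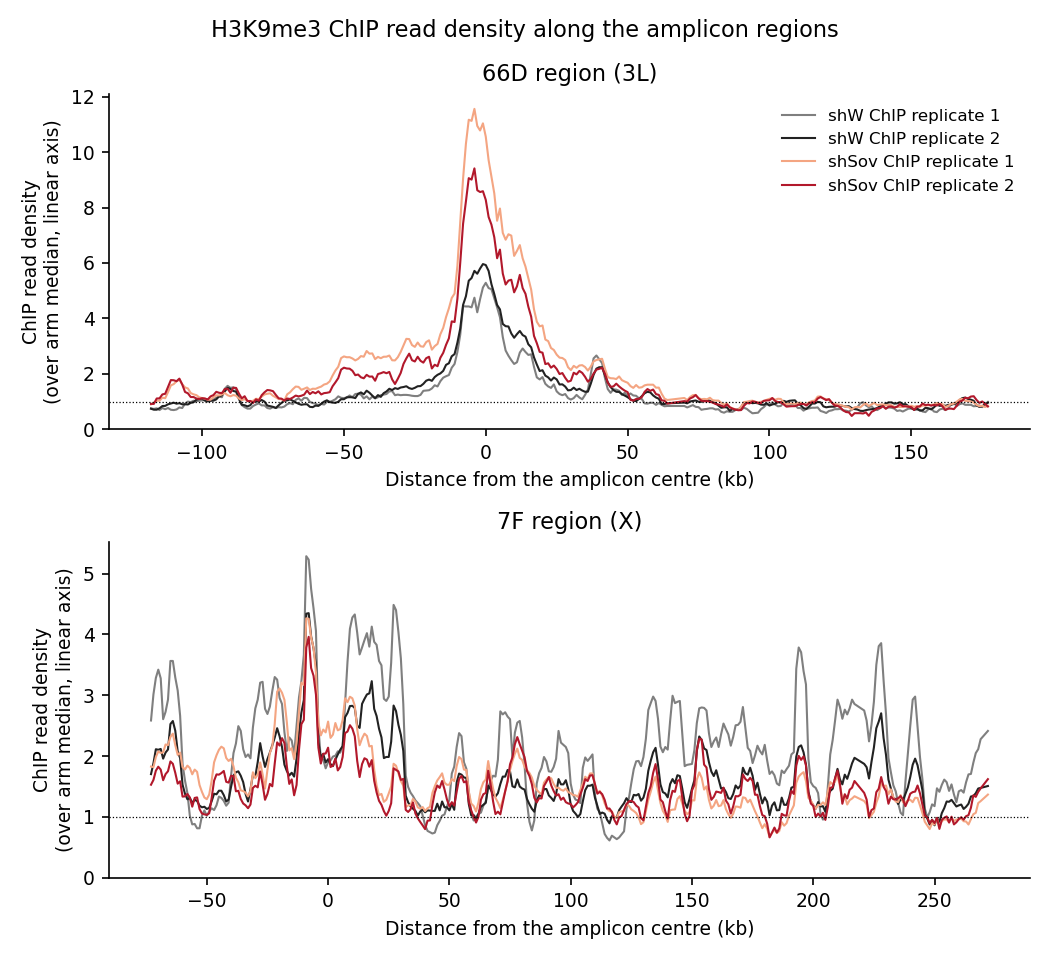
H3K9me3 ChIP read density over the arm median (running mean of 5 windows, linear axis) against distance from the amplicon centre in kb, with 1 line per ChIP library. At 66D the lines have the shape of the input profile, while at 7F the highest point lies 7 kb from the centre on the lower side and shW replicate 1 runs above the other 3 libraries over much of the region.

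At 7F the ChIP reads did not follow the DNA in the same way. ChIP copy over the 5 centre windows was 1.90 and 1.95 in shW and 2.57 and 2.14 in shSov, below the input copy of 3.08 to 3.90 in every pair. The genotypes did not overlap, at a log2 ratio of 0.28, but over 21 windows the ratio was -0.09. The slope of log2 ChIP copy on log2 input copy was 0.16 and 0.34 in shW and 0.64 and 0.53 in shSov, with Pearson's r of 0.13 and 0.35 in shW and 0.79 and 0.58 in shSov. The slopes of the genotypes did not overlap. Over the whole region, mean ChIP copy was 2.14 and 1.63 in shW and 1.55 and 1.45 in shSov, a 0.804-fold ratio, whereas mean input copy was 1.60 and 1.47 in shW and 1.72 and 1.58 in shSov. The mean ChIP values of the genotypes did not overlap and the mean input values did. Median ChIP copy over the 7F windows overlapped, at 1.893 and 1.409 in shW and 1.413 and 1.348 in shSov.

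The 7F core was not uniform. Averaged over the core, enrichment was below that of the rest of X in both shSov libraries. In shW it was above the rest of X in replicate 1 and below it in replicate 2. Mean enrichment was -0.12 and -0.30 in shW and -0.20 and -0.24 in shSov within 20 kb of the centre. Over the rest of the distal arm it was -0.16 and -0.17 in shW and -0.05 and -0.03 in shSov. The core minus the arm was -0.04 ± 0.12 for shW against -0.18 ± 0.03 for shSov (SD, n = 2 each), with no overlap but with a difference of -0.14 that was near the shW SD. Within 10 kb of the centre that difference was 0.06, with the opposite sign. In the 5 kb next to the centre enrichment was far below the arm, at -0.99 and -0.81 in shW and -0.59 and -0.49 in shSov on the lower side, and at -0.98 and -0.94 in shW and -0.46 and -0.57 in shSov on the higher side. There both shSov libraries were above both shW libraries, as at the 66D centre. Averaged over all windows beyond 60 kb, the region was above its arm. The difference was 0.34 ± 0.18 for shW against 0.08 ± 0.04 for shSov (SD, n = 2 each), again with no overlap. Beyond 100 kb on the higher side, enrichment was 0.46 and 0.15 in shW and 0.10 and 0.22 in shSov. From 60 to 100 kb on that side it was below the arm in every library, at -0.25 and -0.35 in shW and -0.29 and -0.33 in shSov. From 60 kb outwards on the lower side it was above the arm only in shW replicate 1, at 0.01 and -0.26 in shW and -0.40 and -0.55 in shSov.

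The enriched windows of 7F were few. In shW 13 of 345 windows (3.77%) reached 2-fold enrichment in each of the replicates, against 7.23% of all tested windows, and in shSov 4 (1.16%) did, against 5.8%. All 4 were among the 13. Of the 13 windows 10 lay more than 60 kb from the centre on the higher side, a zone that holds 209 of the 345 tested windows. The shares of enriched windows in both genotypes were under the background.

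The window of highest enrichment was chrX:8404001-8405000, 29 kb from the centre. Its ChIP libraries held 199 and 217 reads in shW and 415 and 172 in shSov, and enrichment was 2.24 and 1.99 in shW and 1.12 and 1.35 in shSov. The groups did not overlap, but the edgeR adjusted p-value of the interaction was 0.194. At chrX:8509001-8510000, 134 kb from the centre, enrichment was 2.02 and 1.28 in shW and 1.05 and 1.34 in shSov, and the genotypes overlapped. At chrX:8529001-8530000 it was 1.75 and 1.38 in shW and 1.23 and 1.70 in shSov. At chrX:8601001-8602000 it was 1.70 and 1.32 in shW and 0.56 and 0.79 in shSov. The window chrX:8368001-8369000, inside the gradient at 7 kb from the centre, had the highest ChIP copy of the region, at 9.96 and 8.75 in shW and 7.33 and 7.26 in shSov. Its enrichment was 1.40 and 1.53 in shW and 0.84 and 1.09 in shSov, with an input copy of 2.49 to 4.01, and its edgeR adjusted p-value was 0.482.

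The interaction test called 1 window of 7F lower in shSov (0.290%, against 0.595% of all tested windows) and 0 higher, against 0.264%. With an unadjusted p under 0.05 in edgeR there were 47 (13.6%) lower and 8 (2.32%) higher, against 4.45% and 9.3% of all tested windows. The called window, chrX:8395001-8396000, lies 20 kb from the centre. Its ChIP copy was 5.29 and 3.55 in shW and 1.75 and 1.70 in shSov, and its input copy was 1.36 and 1.51 in shW and 1.99 and 1.67 in shSov. Enrichment was 1.68 and 0.95 in shW and -0.17 and 0.05 in shSov, a log2 change of -1.46 (SE 0.31), and edgeR's adjusted p was 0.0124. Around it, from 10 to 20 kb on the higher side, mean enrichment was 0.62 and 0.07 in shW and 0.06 and 0.05 in shSov, and from 20 to 40 kb it was 0.42 and -0.02 in shW and -0.22 and -0.23 in shSov. In both intervals shW replicate 2 lay closer to the shSov libraries than to shW replicate 1. The interaction counts at 7F were 18 higher and 70 lower without shW replicate 2, and 0 lower without either shSov replicate. In the ChIP counts alone edgeR called 19 of the 7F windows lower (5.51%) and 15 higher (4.35%), against 3.19% and 2.84% of all tested windows. The count of lower windows was 103 without shW replicate 2, 6 without shW replicate 1 and 0 without either shSov replicate, and that of higher windows was 42 without shW replicate 2 and 0 without either shSov replicate. With TMM factors the ChIP reads had 2 higher and 26 lower.

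The 10 untested windows were the 5 at chr3L:8785001-8790000, chrX:8593001-8596000 with 3, and chrX:8645001-8647000 with 2.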

How the data were processed

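H3K9me3 ChIP and input DNA of whole ovaries were measured in 8 libraries, 2 in each of 4 groups. Per the labels' protocols, fixed chromatin was sonicated and sequenced as single reads. Per the submitters' processing notes, Bowtie and bedtools were used with build dm3; versions and the treatment of multi-mapping and duplicate reads are not given in the sources used here. Removal of duplicates would lower the windows of highest copy, and whether it was done was not tested. The deposited tables give, for each 1 kb window, the raw read count and the authors' RPKM. The deposited RPKM equals the count per kb of window and per unit of the library's summed counts, which was checked, so copy and enrichment are relative to the library.

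Computed here were copy over the arm median, the centre, gradient and shoulders, and enrichment. Libraries titled as a repeat were numbered replicate 2, and each ChIP was set against the input with its genotype and number; the labels do not state that these share a lysate. Counts were tested with edgeR 4.0.16 (quasi-likelihood F-test, library totals as offsets, Benjamini-Hochberg adjustment over all 117126 tested windows) on the 4 inputs, the 4 ChIP libraries, and all 8 with the interaction of genotype and antibody. SEs are the log2 change divided by the root of F. The tests were run on simulated counts with known changes, of which the interaction recovered the fewest. DESeq2 1.42.0 and limma 3.58.1 were alternatives. Values per library were compared by exact permutation tests, and bins of 20 kb describe the arms. The replicate counts differed by more than counting error, with a chi-square of 1.30 to 3.03 per degree of freedom over the amplicon windows, so each library was counted separately.

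The regions, tests and lists were chosen with earlier results of these data known. Windows were named by a fixed rule: the centre, the window of highest input, windows at set distances, the largest called changes and the most enriched windows. The asymmetry and shoulder measures, the counts by distance and the differences between the amplicons in ChIP and enrichment were added after their values were seen.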

Additional observations from a re-analysis of the deposited data

Results flagged for a closer look

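Averaged over each region, the H3K9me3 ChIP reads of the amplicons differed between the genotypes in opposite directions. Mean ChIP copy over the region was higher in both shSov libraries than in both shW libraries at 66D and lower in both at 7F. The median over the 7F windows overlapped between the genotypes. The fall was not confined to 7F. Just outside the region on the higher side, the log2 ratio of shSov to shW of ChIP copy was -0.32 at chrX:8660001-8680000 and -0.52 at chrX:8680001-8700000. Just outside on the lower side, at chrX:8280001-8300000, it was 0.16. The log2 mean ChIP copy of 7F minus that of 66D was 0.75 and 0.20 in shW and -0.49 and -0.34 in shSov, a difference of -0.891 (two-sided exact permutation p = 0.333, the smallest that 2 libraries against 2 can give). Over the 5 centre windows ChIP copy was higher in shSov at both amplicons, 1.67-fold at 66D and 1.22-fold at 7F, with no overlap. The mean enrichment within 20 kb of the centre, relative to the rest of the arm, was higher in shSov at 66D and lower at 7F. The value of 7F minus that of 66D was 0.42 and 0.06 in shW and -0.09 and -0.12 in shSov, a difference of -0.343 with the same p. Within 10 kb of the centre the shSov value was the higher at both, by 0.278 at 66D and by 0.0598 at 7F. The shW replicates differed from each other by more than the shSov replicates in both measures, and shW ChIP replicate 1 was the shallowest library.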

How the results depend on the processing

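At 66D, the log2 ratio of mean input copy over the region, 0.488, became 0.170 as a median over windows and 0.698 within 50 kb of the centre. The slope difference on the lower side, 0.0175 per 10 kb, became 0.0898 over 40 kb and -0.0880 over 100 kb, and that on the higher side, -0.0644, became -0.0324 over 40 kb. Core enrichment relative to the arm, 0.207, became 0.843 against the mean of all 4 inputs and 0.342 as a ratio of summed RPKM.

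At 7F, the log2 ratio of ChIP copy at the centre, 0.284, became 0.483 with the 500 kb flanks as reference and reversed to -0.0862 over 21 windows. The mean input copy ratio, 0.102, became 0.206 with the flanks as reference. The slope difference on the higher side, 0.0860, became 0.0332 over 40 kb and 0.0358 over 100 kb. Core enrichment relative to the arm, -0.136, reversed to 0.0598 within 10 kb and became -0.337 as a median.

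Counts of windows moved more. With DESeq2 the inputs had 45 windows of 66D higher and 0 lower, 26 higher on the lower shoulder, and 0 of 7F in either direction; the ChIP reads had 25 of 66D and 0 of 7F higher, and the interaction 1 of 66D higher and 4 of 7F lower. With TMM factors the ChIP reads had 28 of 66D and 2 of 7F higher, and with DESeq2's size factors in edgeR 27 and 2, where the interaction had 1 of 66D higher and 2 of 7F lower. Over all windows with a read, 29 of 7F were lower in the ChIP reads, and the interaction had 5 of 66D and 1 of 7F higher and 3 of 7F lower. In bins of 10 kb, which are fewer, the inputs had 14 of the 30 bins of 66D higher and 0 lower, and 2 of the 35 of 7F higher and 2 lower, against 10.6% higher and 9.37% lower of all 12652 bins. The ChIP reads had 17 bins of 66D higher, 3 of 7F higher and 6 lower, against 12.4% and 6.75%, and the interaction had 1 of 66D higher and 0 of 7F lower, against 1.15% and 1.5%. limma called 0 windows of 66D higher and 0 of 7F lower. A block for each lysate gave 2 windows of 7F lower. The cause of these moves was not tested, beyond the smaller number of bins.

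The replicate numbers were assigned here from the word repeat in the titles. Same-numbered libraries of the genotypes showed no shared deviation: r was -0.051 in the inputs, -0.031 in the ChIP and -0.026 in enrichment. Whether lysates were prepared in pairs cannot be told from these values. With the replicate number as a block the inputs had 65 windows of 66D higher and 1 lower, 40 of 40 on the lower shoulder and 13 of 7F higher, and the interaction had 2 of 7F lower.

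Leaving out each replicate in turn, with the lone library assumed to vary like the others, gave 19 to 129 windows of 66D higher and 0 to 8 lower in the inputs, 16 to 40 on the lower shoulder, and 0 to 50 of 7F higher and 0 to 23 lower. The ChIP reads gave 2 to 161 of 66D higher, 0 to 42 of 7F higher and 0 to 103 lower. The interaction gave 0 to 22 of 66D higher, 0 to 18 of 7F higher and 0 to 70 lower. The log2 ratio of input copy at the centre stayed between 0.439 and 0.811 at 66D and ranged from -0.193 to 0.149 at 7F.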
